A study of Mus musculus with 2 samples.

Results

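The barcodes described here are those that a limit on mitochondrial RNA takes out of a single-cell RNA-sequencing dataset of newborn mouse epidermis. They were chosen by rule: between 900 and 7700 genes detected, and at least 10% of the unique molecular identifiers (UMIs, which count each captured transcript once) from genes whose symbol starts with mt-. The rule gave 3688 of the 26683 deposited barcodes, 1615 of 10816 in KO mouse 1 and 2073 of 15867 in KO mouse 2. They are called high-mitochondrial barcodes below and are compared with the 19488 barcodes in the same gene range but under 10% (low-mitochondrial barcodes, 7607 and 11881). The remaining 3507 barcodes lay outside the gene range, and 2404 of these were also at or over 10%.

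The 2 libraries, 1 per animal, were made from the epidermis of male C57BL/6J mice with a knockout (KO) of Chrm3, which encodes the M3 muscarinic acetylcholine receptor, at postnatal day 0. Libraries were made on the 10x Chromium platform from suspensions of dermis-free epidermis that had gone through a dead-cell depletion. Both animals carry the same genotype and WT libraries were not analysed here, so that all values describe KO epidermis and no effect of the genotype was tested. KO mouse 1 gave 109756784 UMIs and KO mouse 2 gave 166441732. The libraries shared 127 barcode sequences, and 11 high-mitochondrial barcodes were among them.

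The epidermis renews itself from a basal layer of keratinocytes (KCs), which express Krt5 and Krt14. As KCs of the interfollicular epidermis (IFE) move outward they switch to Krt1 and Krt10 in the spinous layers, then to Flg and Lor in the granular layer, and finally lose their nucleus and organelles as they cornify. A high mitochondrial share is commonly used to discard droplets in which cytoplasmic RNA is thought to have been lost, because the mitochondria hold their own RNA inside membranes, and the nucleus likewise retains transcripts such as Malat1 and Neat1.

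High-mitochondrial barcodes held less RNA from nuclear genes and more from mitochondrial genes than the others. Their median was 3972 UMIs in KO mouse 1 and 3683 in KO mouse 2, against 10480 and 10577 in low-mitochondrial barcodes. The median from nuclear genes was 2457 and 2554, which is 24.8% and 25.5% of the low-mitochondrial medians of 9892 and 10035. The median from mitochondrial genes was 1186 and 980, against 589 and 549. A median of 1362 and 1358 genes was detected, against 3070 and 3058 in low-mitochondrial ones. Since the number of genes and the mitochondrial share define the barcodes, these values are a description and were not tested. Whether fewer nuclear transcripts per cell, partial cells or a mixture of cells lie behind the low totals cannot be told apart from counts alone. After thinning each barcode to 3000 UMIs of nuclear genes, the median was 1488 and 1436 genes in high-mitochondrial barcodes and 1395 and 1377 in low-mitochondrial ones. This leaves out 1001 of 1615 and 1232 of 2073 high-mitochondrial barcodes, which were shallower, but only 89 and 240 low-mitochondrial ones.

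The mitochondrial share did not thin out steadily above the limit. Its median among high-mitochondrial barcodes was 31.3% (quartiles 20.1% and 40.1%, highest 73.9%) in KO mouse 1 and 26.9% (18.1% and 33.8%, highest 61.0%) in KO mouse 2. In the low-mitochondrial barcodes the medians were 5.42% and 5.004%. In KO mouse 1, 77 barcodes lay between 10% and 11%, and in KO mouse 2 there were 95. Just below the limit, between 9% and 10%, there were 102 and 160. The barcodes on either side were alike in depth, with median nuclear UMIs of 8619 and 7196 just above 10% and 9225.5 and 8208 just below. The bulk of the high-mitochondrial barcodes lay far from the limit and were much shallower: between 20% and 30% the median was 1905 and 2035.5 nuclear UMIs.

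**Figure D1:**
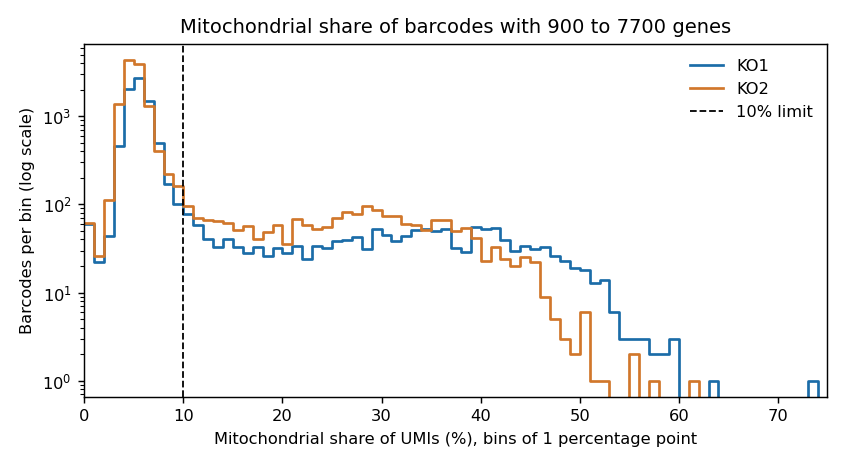
Number of barcodes (vertical, log scale) in each bin of 1 percentage point of mitochondrial share (horizontal, %), for barcodes with 900 to 7700 genes of KO mouse 1 and KO mouse 2; the dashed line is the 10% limit. Each mouse has a main peak near its low-mitochondrial median (5.42% and 5.004%) and a broad, lower plateau above the limit that reaches past 40%.

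Suprabasal IFE-like KCs were the most frequent lineage among high-mitochondrial barcodes, and a larger part of them was removed than of any other named lineage. Both orders hold for the limits of 10% and 20% and turn at 5%. There, as means of the mice, hair follicle-like (24.98%) and basal IFE-like (19.7%) barcodes were more frequent than suprabasal IFE-like ones (18.3%), although in KO mouse 1 basal IFE-like barcodes (17.2%) were fewer than suprabasal IFE-like ones (18.0%), and 91.3% of basal IFE-like against 87.2% of suprabasal IFE-like barcodes were removed. Lineages were named from marker genes on the low-mitochondrial barcodes, using nuclear genes only, and were carried over to each high-mitochondrial barcode by its most similar low-mitochondrial ones. Of the high-mitochondrial barcodes, 724 (44.8%, exact 95% binomial interval 42.4 to 47.3) in KO mouse 1 and 923 (44.5%, 42.4 to 46.7) in KO mouse 2 were suprabasal IFE-like, a mean of 44.7% ± 0.216 (SD, n = 2 mice). Among low-mitochondrial barcodes the shares were 7.89% and 7.02%. Put the other way, 54.7% (52.0 to 57.4) of all suprabasal IFE-like barcodes of KO mouse 1 and 52.5% (50.2 to 54.9) of those of KO mouse 2 lay at or over 10%. Without the mitochondrial limit this lineage would hold 14.4% and 12.6% of the barcodes in the gene range. Binomial intervals here and below cover counting error only, and the shares were not tested over the 2 animals.

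At the 10% limit the other lineages lost a smaller part. Of the basal IFE-like barcodes, 17.5% and 15.8% lay at or over 10%, and of the hair follicle-like ones 12.4% and 11.3%. These parts depend on how barcodes were assigned: with lineages from clustering both classes together they were 3.89% and 4.11% for basal IFE-like and 9.12% and 7.43% for hair follicle-like barcodes, and without a Malat1-led cluster described below 7.28% and 6.07% and 9.28% and 7.58%. The mice differed for dividing-like barcodes, at 12.5% (10.8 to 14.2) in KO mouse 1 and 6.93% (5.91 to 8.06) in KO mouse 2, which were 3.49% and 2.71% with the joint clustering and 2.87% and 1.93% without the Malat1-led cluster. Sebaceous-like barcodes were at 14.7% and 11.2% with wide intervals (8.78 to 22.4 and 6.91 to 17.0), since only 17 and 19 were high. Of melanocyte-like barcodes 5.62% and 4.32% (26 and 33) and of Langerhans cell-like ones 2.68% and 3.02% (4 and 6) were removed. Of T cell-like barcodes 1 and 4 were removed, 1.89% (0.0478 to 10.1) and 9.52% (2.66 to 22.6), and dermal-like and Merkel-like high-mitochondrial barcodes numbered 4 and 2 in all. The 2 unnamed clusters, led by Pltp and Kif26a and by Ccl27a and Pou3f1, together lost 4.16% and 4.14%.

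**Figure D2:**
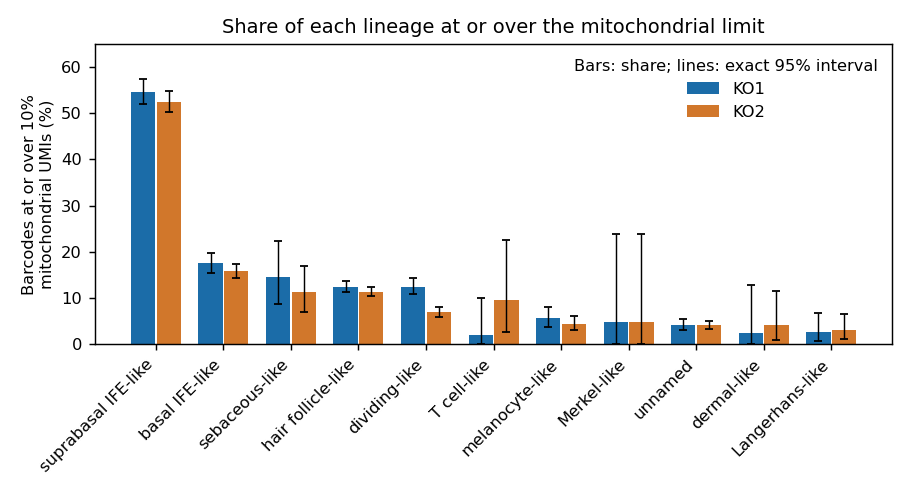
Share of the barcodes of each lineage (horizontal) that lay at or over 10% mitochondrial UMIs (vertical, %), for KO mouse 1 and KO mouse 2; bars are shares and lines exact 95% binomial intervals. Suprabasal IFE-like barcodes stand at 54.7% and 52.5%, and no other bar passes 17.5%.

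Within the suprabasal IFE-like lineage, removal was heaviest in a late cluster. The cluster led by Serpinb12, Flg, Krt1 and Krt10 lost 79.1% (75.6 to 82.2) of its barcodes in KO mouse 1 and 80.1% (77.0 to 82.9) in KO mouse 2. The cluster led by Clca3a2, Stfa1, Ly6d and Krt16 lost 30.7% and 32.7%. The cluster led by late cornified envelope (Lce1) genes lost 51.0% and 32.2%, on 98 and 87 barcodes. The high- and low-mitochondrial barcodes of this lineage are therefore not spread alike over its clusters: 65.4% of the high ones matched the Flg and Krt10 cluster, whereas 73.3% of the low ones were in the Clca3a2 cluster. In the basal IFE-like lineage, the cluster led by Pcsk2, Ackr4 and Atf3 lost 25.8% and 21.8%, and the one led by H19 and Igf2 lost 7.58% and 7.45%. When both classes were clustered together, the cluster with the leading genes Pcsk2 and Ackr4 held 74 high-mitochondrial barcodes among 1456 (5.08%) and was unnamed. Hair follicle-like clusters ranged from 3.86% over both mice (led by Ncam1 and Bdnf) to 19.4% (led by Krt79 and Krt75) and 19.2% (led by Krt28 and Krt35).

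The same can be read from single genes, without any lineage names. High-mitochondrial barcodes held 6.58% of the nuclear UMIs of all barcodes in the gene range in KO mouse 1 and 5.42% in KO mouse 2. They held 69.7% and 70.6% of the UMIs of Flg, the filaggrin precursor that fills granular cells, and 78.0% and 69.0% of those of Flg2. For Hrnr, another gene of the filaggrin family, the shares were 66.0% and 63.9%. Of Krt10, the keratin of all suprabasal layers, 33.1% and 35.7% were in high-mitochondrial barcodes. The largest shares among the genes named here were those of Slc28a3, a nucleoside transporter, at 89.0% and 85.4%, and of Cyp2b19, an epoxygenase of the granular layer, at 83.5% and 76.5%. Of Krt14, the basal keratin, only 5.34% and 4.86% were in them, close to their share of all nuclear UMIs.

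Clustering both classes together, again on nuclear genes, put 2519 of the 3688 high-mitochondrial barcodes (67.3% and 69.1% of those of KO mouse 1 and KO mouse 2) into 3 clusters that held almost no low-mitochondrial barcodes. The cluster sizes follow from genes that differ between the classes and are a description. The first held 1078 high-mitochondrial barcodes among 1099 and was led by Skint9, Krt10, Dsg1a and Rdh12. Krt10 stood in it at 40602 and 40936 counts per 1000000 nuclear UMIs (CPM) in KO mouse 1 and KO mouse 2, and Flg at 5947 and 7722. The second held 462 among 464 and was led by Flg, Hrnr, Flg2 and Spink5, with Flg at 82568 and 96226 CPM. Spink5, an inhibitor of the proteases that release cornified cells, was at 7344 and 7227 CPM there, against 699.8 and 725.2 in the first. The Krt10 and Flg clusters thus differed in the genes of the granular layer while both had high mitochondrial shares, with medians of 41.2% and 35.2% in the first and 39.3% and 29.9% in the second.

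The third cluster, with 979 high-mitochondrial barcodes among 1022, could not be named from markers. It was led by Gm3550, Malat1, Gm26917 and Gm26699 and was the shallowest of the 3, with a median of 1601 and 1718 nuclear UMIs. Its median mitochondrial share was 32.4% and 27.4%. Malat1 stood at 80616 and 81378 CPM, close to the Krt10-led (77768 and 77674) and Flg-led clusters (82740 and 75157). Flg (1074 and 1461 CPM) and Krt10 (3284 and 4757) were far lower than in those, and Krt14 was at 6042.5 and 10530. By similarity to low-mitochondrial barcodes, 344 of its members were basal IFE-like, 297 hair follicle-like and 263 dividing-like, and 14 suprabasal IFE-like. It held 64.5% of all basal IFE-like and 76.7% of all dividing-like high-mitochondrial barcodes, so that most of what is said below of these lineages rests on it.

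Composition changed with the mitochondrial share above the limit. Between 10% and 11%, 9.09% and 17.9% of the barcodes were suprabasal IFE-like, against 11.8% and 11.2% just below the limit. Between 30% and 40% the shares were 41.6% and 67.7%, and between 40% and 50% they were 84.2% and 92.8%. The Malat1-led cluster was rare up to 15% (at most 4.91% of a bin), held 35.2% and 48.7% of the barcodes between 20% and 30%, and 11.4% and 4.22% of those between 40% and 50%. Malat1 itself was at 16753 and 22695 CPM between 10% and 11% and at 109290 and 123800 between 40% and 50%. Rpl32, which encodes a ribosomal protein, was at 6409.5 and 6236 CPM and then at 1112 and 1866. The 325 barcodes under 3%, 126 and 199, also held more suprabasal IFE-like ones (19.8% and 12.1%) than those between 3% and 5% (4.41% and 4.28%).

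**Figure D3:**
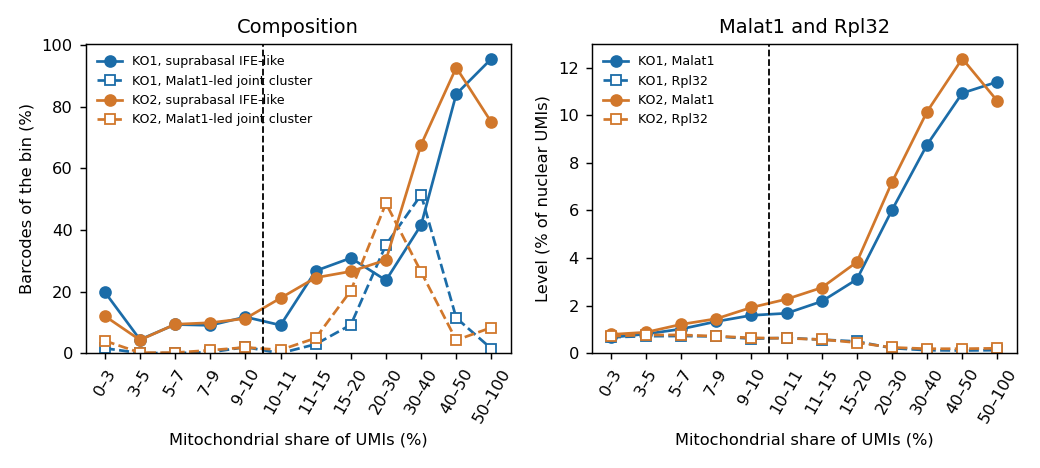
Left, share of the barcodes of each bin of mitochondrial share (horizontal, %) that were suprabasal IFE-like (filled circles) or in the Malat1-led cluster (open squares), in %; right, Malat1 (circles) and Rpl32 (squares) as % of nuclear UMIs, for KO mouse 1 and KO mouse 2. The dashed line is the 10% limit. Suprabasal IFE-like barcodes reach 84.2% and 92.8% between 40% and 50%, while the Malat1-led cluster has its highest shares between 20% and 40%.

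Nuclear genes were then compared between the classes within lineages, on UMI counts summed per mouse, lineage and class for the 5 lineages with at least 20 barcodes in each sum. Mitochondrial genes were left out of the sums and of their totals, so that mitochondrial counts do not enter the test. Nuclear UMIs are still part of the total in the mitochondrial share, and nuclear genes count towards the gene range. The comparison is therefore not independent of the rule that chose the barcodes. As a mean over the lineages, 5803 of 12782 genes (45.4%) passed an adjusted p of 0.05 in edgeR's quasi-likelihood test, 3824 higher (29.9%) and 1979 lower (15.5%) in high-mitochondrial barcodes. The balance of both directions rests on the scaling. Of the calls, 65.9% were higher with the scaling used (median log2 fold change of all genes 0.13), 51.7% with DESeq2's size factors in edgeR (median -0.03), 62.0% in DESeq2 and 41.5% with TMM factors from all genes (median -0.15). The same sign in all 5 lineages was seen for 3174 of the 3824 higher genes and 1544 of the 1979 lower ones. By lineage, 7208 genes (56.4%) were called in suprabasal IFE-like barcodes, 41.3% of all tested higher and 15.1% lower. There too the balance rests on the scaling: 73.3% of these calls were higher (median of all genes 0.43), 60.2% with DESeq2's size factors (0.19), 61.1% in DESeq2 and 49.2% with TMM factors from all genes (0.01). In hair follicle-like barcodes 4252 (33.3%) were called, 24.1% higher and 9.18% lower. In dividing-like barcodes 3650 (28.6%) were called, 19.7% higher and 8.85% lower, and in basal IFE-like ones 3127 (24.5%), 17.6% higher and 6.85% lower. In melanocyte-like barcodes, the smallest sums, 298 (2.33%) were called, 1.53% higher and 0.806% lower, a count that lay between 503 and 787 with the mouse block, joint clustering, no filter, TMM on all genes or DESeq2. Without separating lineages 8225 of 14950 genes (55.0%) were called, 34.3% higher and 20.7% lower, a comparison that also holds the difference in lineage mix. Without the Malat1-led cluster the basal count was 274 and the dividing count 167, whereas the suprabasal count was 7185.

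The largest positive differences among genes with at least 20 CPM were those of Slc28a3, Clec2g and Cyp2b19. Slc28a3 was at 161 and 134 CPM over all high-mitochondrial barcodes of KO mouse 1 and KO mouse 2 and at 1.40 and 1.31 over the low ones. Within suprabasal IFE-like barcodes it was higher by 4.90 ± 0.21 (log2 fold change ± SE, adjusted p = 6.16e-13, edgeR), and as a mean over lineages by 4.51 ± 0.50. Outside the suprabasal lineage that fold rests on few UMIs, for example 4 in the dividing-like high-mitochondrial sum of KO mouse 1. Cyp2b19 was at 158 and 118 CPM against 2.19 and 2.08, with a suprabasal log2 difference of 4.97 ± 0.21. Clec2g, a C-type lectin, was at 80.9 and 70.7 against 1.88 and 1.74.

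Flg was at 12571 and 16110 CPM in high-mitochondrial barcodes and at 385.1 and 385.5 in low ones. It was higher by 2.98 ± 0.20 as a mean over lineages (adjusted p = 1.93e-10, edgeR) and by 3.55 ± 0.44 in the suprabasal lineage. The files list Flg under 7 identifiers, and these values are of the most abundant one, on chromosome 3 of GRCm38 (mm10) from 93273523 to 93293686. Its repeats and its relatives nearby make the assignment of reads among them uncertain. Flg2 lies next to it, from 93197278 to 93221391, and was at 274 and 267 CPM against 5.47 and 6.90. Tgm1, the transglutaminase that cross-links the cornified envelope, was at 74.6 and 69.7 CPM against 3.62 and 3.04. Rdh12, a retinol dehydrogenase (336 and 292 CPM against 20.2 and 15.1), Lipm, a lipase of the outer epidermis (145 and 98.2 against 5.21 and 4.60), and Skint9 (228 and 176 against 10.7 and 8.87) were also among the 12 largest. The others were Mpzl3, a membrane protein of the epidermis and sebaceous gland (168 and 139 against 5.69 and 4.51), the receptor Notch3 (60.4 and 62.8 against 6.00 and 5.31) and Map2, a microtubule-associated protein (79.2 and 71.9 against 1.99 and 1.71). Mean log2 differences of the 12 genes ranged from 2.78 (Mpzl3) to 4.51 (Slc28a3), all with the same sign in each of the 5 lineages. Not all of these lineage differences were called, and outside the suprabasal lineage several rest on few UMIs, as for Map2 in basal IFE-like (adjusted p = 0.768, edgeR) and Cyp2b19 in basal IFE-like (0.104) and melanocyte-like barcodes (0.255).

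Of the 22 tested genes of a list of KC differentiation, 18 were higher as a mean over lineages, none was lower and 4 were not called, beside 29.9% higher and 15.5% lower of all genes tested, with a median log2 difference of 1.70 beside 0.13 for all genes. With DESeq2 and under the other scalings in edgeR 16 to 20 were higher and none was lower. These UMIs made up 5.60% and 7.13% of the nuclear UMIs of high-mitochondrial barcodes and 0.956% and 0.904% of those of low ones. Within the suprabasal lineage 15 were higher and 4 lower, beside 41.3% and 15.1% of all genes tested there, with a median of 0.97 beside 0.43 for all genes in that lineage. Among the higher genes were Dsc1, a desmosomal cadherin (2.57 ± 0.16), Evpl, which encodes envoplakin (2.35 ± 0.11), and Cdsn, corneodesmosin (2.29 ± 0.26). The secreted protein Sbsn was higher by 2.22 ± 0.21. The 4 lower genes were Krtdap (-1.05 ± 0.39, adjusted p = 0.0278), Calm4 (-0.81 ± 0.26), Sprr1a (-1.40 ± 0.44) and Sprr1b (-1.24 ± 0.29), the last 2 encoding small proline-rich envelope proteins. Krt10 was higher by 1.11 ± 0.30 (adjusted p = 0.00378), from 19977 and 16404 CPM in low- to 36671 and 39517 in high-mitochondrial suprabasal IFE-like barcodes, whereas Krt1 (0.48 ± 0.42, adjusted p = 0.346) was not called. The basal keratins were lower in this lineage, Krt14 by -1.18 ± 0.29, Krt5 by -1.36 ± 0.32 and Krt15 by -1.29 ± 0.33. Since the classes sit in different suprabasal clusters, as given above, a difference between cells of one stage cannot be told apart here from a difference in stage.

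Suprabasal transcripts were also more abundant in high-mitochondrial barcodes of the other lineages, including one of neural crest origin. In melanocyte-like barcodes Flg was at 3147 and 1192 CPM in the high- and at 128 and 198 in the low-mitochondrial class, on 385 and 170 UMIs in 26 and 33 high-mitochondrial barcodes. Krt10 was at 3694 and 4242 CPM there, against 488 and 811. The melanocyte genes Pmel (3449 and 2328 CPM against 3747 and 3878) and Dct (4839 and 4403 against 4190 and 4904) were present in both classes. In hair follicle-like barcodes Flg was 8.39 and 9.82 times and in basal IFE-like ones 4.23 and 4.08 times the low-mitochondrial level. Krt14 was at 858 and 2279 CPM in melanocyte-like high-mitochondrial barcodes and at 908 and 1388 in low ones, that is 0.945 and 1.64 times, where Krt10 was 7.57 and 5.23 times. The ratio of Flg to Krt10 was 0.681 and 0.728 in suprabasal IFE-like high-mitochondrial barcodes, 0.852 and 0.281 in melanocyte-like and 0.282 and 0.248 in basal IFE-like ones. Scrublet called 4.40% and 5.69% of the high-mitochondrial and 2.42% and 3.94% of the low-mitochondrial barcodes of all lineages doublets. The part was larger in melanocyte-like barcodes. Without doublets, 21 of the 26 and 24 of the 33 high-mitochondrial ones were left, and 393 of 437 and 641 of 730 low-mitochondrial ones. The part of free RNA, of cell pairs and of depth in these levels was not tested.

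**Figure D4:**
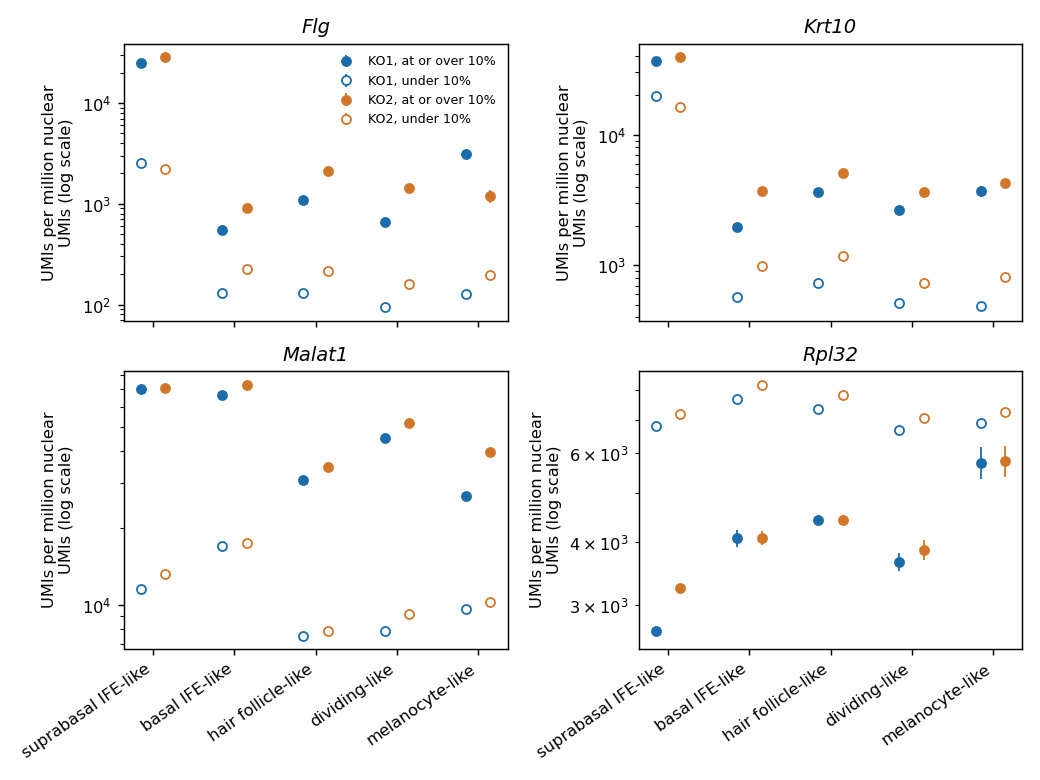
Levels of Flg, Krt10, Malat1 and Rpl32 (vertical, CPM, log scales) in the 5 tested lineages (horizontal), for barcodes at or over 10% (filled) and under 10% (open) of KO mouse 1 and KO mouse 2; lines are exact 95% Poisson intervals, mostly within the symbol. In each lineage and mouse Flg, Krt10 and Malat1 lie higher and Rpl32 lower in the high-mitochondrial class. Flg in that class is at 24989 and 28777 in suprabasal IFE-like and at 3147 and 1192 in melanocyte-like barcodes, which are not the lowest.

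Of 5 nuclear-retained RNAs tested, 3 were higher in high-mitochondrial barcodes, beside 29.9% of all genes tested. Malat1, a long noncoding RNA of nuclear speckles, was at 54574 and 59777 CPM against 9736 and 10601, and made up 5.46% and 5.98% of nuclear UMIs against 0.974% and 1.06%. It was higher by 2.06 ± 0.07 as a mean over lineages (adjusted p = 4.66e-14, edgeR), and by 5.37 to 6.06 times in suprabasal IFE-like, 3.90 to 4.18 times in basal IFE-like and 2.78 to 3.86 times in melanocyte-like barcodes. Neat1, the scaffold of paraspeckles, was at 2165 and 1945 CPM against 595 and 564, a mean log2 difference of 1.38 ± 0.07. Kcnq1ot1, a nuclear RNA of an imprinted locus, was at 312 and 305 against 162 and 157 (0.94 ± 0.06). These were the 3 called, and none of the 5 tested, of 11 listed, was lower. Airn (0.31 ± 0.17) was not called. Miat, another nuclear RNA, was at 20.4 and 22.6 CPM against 1.19 and 0.928 and was higher in suprabasal IFE-like barcodes by 4.67 ± 0.38. A group had no UMIs of Miat, so that its mean over lineages is no measure of size and is not given. Malat1 lies on chromosome 19 from 5795690 to 5802672, close to Neat1, which lies from 5824708 to 5845478.

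Genes of the cytoplasmic ribosome were lower throughout. All 81 ribosomal protein genes tested were lower as a mean over lineages, with a median log2 difference of -0.80, beside 15.5% of all genes tested, and under every alternative with a test 80 or 81 genes were lower and none was higher. They made up 16.3% and 17.4% of the nuclear UMIs of high-mitochondrial barcodes and 29.7% and 31.0% of those of low ones. Rpl32 was at 3577 and 3786 CPM against 7147.5 and 7612, a mean log2 difference of -0.94 ± 0.05 (adjusted p = 1.17e-11, edgeR). Rpl13, another of the most abundant members, was lower by a similar amount (-0.77 ± 0.04). In melanocyte-like barcodes the median of the list was -0.35 and 9 genes were called lower, beside 0.806% of all genes, and in suprabasal IFE-like ones it was -1.03 with all 81 called lower, beside 15.1%.

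Nuclear genes whose products work in mitochondria were tested as 4 lists, whose counts stand beside 29.9% higher and 15.5% lower of all genes tested. Of 82 tested nuclear genes of oxidative phosphorylation (OXPHOS), 72 were lower, 3 higher and 7 not called, with a median of -0.58. Cox4i1, a subunit of cytochrome oxidase, was at 999 and 1021 CPM against 1435 and 1392 (-0.40 ± 0.04), and the ATP synthase genes Atp5b (-0.31 ± 0.04) and Atp5a1 (-0.28 ± 0.05) were likewise lower. The 3 higher were Ndufs1 (0.30 ± 0.08), Uqcc1 (0.44 ± 0.17) and Sdha (0.38 ± 0.06), named after their values were seen, and with TMM factors from all genes none of the list was called higher. Of 73 mitochondrial ribosomal protein genes 53 were lower and 4 higher (median -0.47), with Mrpl23 at -0.73 ± 0.07. Of 29 genes of mitochondrial import and dynamics, 19 were lower and 5 higher (median -0.40). Slc25a5, an ADP/ATP carrier, was at 428 and 439 CPM against 718 and 705. These lists kept negative medians and mostly lower calls under each scaling. In the list of mitochondrial gene expression 3 were higher, which is below the share of all genes, and 4 lower, which is near it, of 21, with a median of 0.27, which was -0.02 with TMM factors from all genes. Polg, the mitochondrial DNA polymerase (1.14 ± 0.10), Lrpprc, which stabilizes mitochondrial mRNA (0.78 ± 0.09), and Tsfm, an elongation factor (0.51 ± 0.09), were higher. Tfam, which packages mitochondrial DNA and starts its transcription (-0.49 ± 0.10), Slirp, the partner of Lrpprc (-0.63 ± 0.17), Tfb2m (-0.42 ± 0.16) and Tfb1m (-1.06 ± 0.43) were lower.

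The mitochondrial transcripts themselves, which the rule used, differed in make-up by gene. Of the mitochondrial UMIs, mt-Atp6 took 25.1% and 24.6% in high- and 25.2% and 24.4% in low-mitochondrial barcodes, and mt-Co2 15.7% and 15.4% against 15.6% and 15.2%. mt-Co1 took 15.2% and 15.2% against 13.1% and 13.3%. mt-Nd1 took 5.50% and 5.59% against 6.54% and 6.64%, mt-Nd2 4.17% and 4.60% against 4.89% and 5.26%, and mt-Cytb 8.46% and 8.55% against 9.18% and 9.45%. These totals mix lineages, and mt-Co1 went different ways within them. Its share was 1.27 and 1.23 times the low-mitochondrial one in suprabasal IFE-like barcodes, but 0.875 and 0.900 times in basal IFE-like and 0.879 and 0.864 times in hair follicle-like ones. mt-Nd2 was at 0.781 and 0.810 times in suprabasal IFE-like and at 1.03 and 1.01 times in basal IFE-like barcodes.

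**Figure D5:**
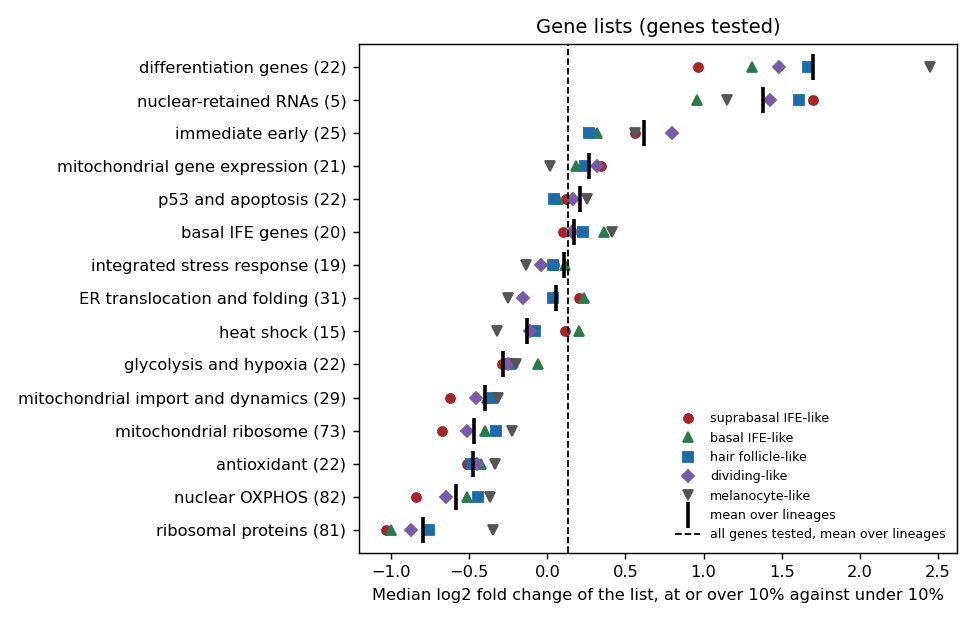
Median log2 fold change of each gene list (vertical, with the number of genes tested) between barcodes at or over 10% and under 10% (horizontal, edgeR), within the 5 lineages (symbols) and as a mean over them (black bars); the dashed line is the median of all genes tested (0.13). Differentiation genes (1.70) and nuclear-retained RNAs (1.38) lie far right and ribosomal proteins (-0.80) and nuclear OXPHOS genes (-0.58) left of the line.

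Of 25 immediate early genes, which are switched on within minutes of a stimulus, 11 were higher and none lower (median 0.62), beside 29.9% higher and 15.5% lower of all genes tested. By lineage 12 were called higher in suprabasal IFE-like and 8 in dividing-like barcodes, and 2 in hair follicle-like, 1 in basal IFE-like and 1 in melanocyte-like ones, beside 41.3%, 19.7%, 24.1%, 17.6% and 1.53% of all genes tested, so that the suprabasal count is near and the hair follicle and basal counts are below that of all genes. In suprabasal IFE-like barcodes 1 was called lower, beside 15.1% of all genes tested there. Jun was at 2351 and 1856.5 CPM against 1638 and 1129 (0.56 ± 0.11), Fos at 933 and 786 against 532 and 306 (0.78 ± 0.18), and Jund (0.06 ± 0.09, adjusted p = 0.636) was not called. With TMM factors from all genes 7 were higher and 2 lower. Of 15 heat shock genes 3 were higher and 4 lower (1 and 7 with DESeq2's size factors, 1 and 8 with TMM factors from all genes), with Hspa8 at 700 and 733 CPM against 1268 and 1300 (-0.60 ± 0.05) and Hsp90ab1 at -0.48 ± 0.04. Genes of the integrated stress response (4 higher and 4 lower of 19, median 0.11) and of p53 and apoptosis (6 and 2 of 22, median 0.21) were near the median of all genes, and both medians were negative with TMM factors from all genes (-0.18 and -0.07), the first also with DESeq2's size factors (-0.06). With TMM factors from all genes the counts were 3 higher and 7 lower and 3 higher and 6 lower. Cdkn1a, a p53 target that halts the cell cycle, was at 239 and 236 CPM over all high-mitochondrial barcodes and 105 and 92.2 over low ones, but its mean difference within lineages was 0.34 ± 0.12 (adjusted p = 0.0231, edgeR) and was -0.01 without doublets. Bax was lower by -0.53 ± 0.08.

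The counts that follow stand beside 29.9% higher and 15.5% lower of all genes tested, and those of the ER and basal IFE lists that were higher are near that share. Of 22 antioxidant genes 14 were lower and none higher (median -0.48), among them the ferritin gene Fth1 at 674 and 784 CPM against 1378 and 1544 (-0.79 ± 0.07) and Gpx1 (-0.86 ± 0.06). Of 22 genes of glycolysis and hypoxia 9 were lower and 2 higher (median -0.28). Gapdh was at 479 and 477 CPM against 1018 and 998 (-0.88 ± 0.05) and Ldha lower by -0.56 ± 0.06. Of 31 genes of translocation into the endoplasmic reticulum (ER) and folding, 9 were higher and 9 lower, with a median of 0.06 that was -0.11 with DESeq2's size factors (5 higher and 13 lower) and -0.23 with TMM factors from all genes (2 and 17). Of 20 basal IFE genes, 8 were higher and 2 lower as a mean over lineages (median 0.17), but 5 higher and 6 lower with DESeq2's size factors and 4 and 7 with TMM factors from all genes (median -0.11). With the scaling used, Krt14 (-0.33 ± 0.13) and Krt5 (-0.54 ± 0.14) were lower and Col17a1, a collagen of hemidesmosomes (0.80 ± 0.12), and Lamb3, a laminin chain (0.83 ± 0.16), were higher.

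Among the 12 largest negative differences, those of Ppp1r14a and Taf5 rest largely on melanocyte-like sums. Ppp1r14a (-2.35 ± 0.56) and Taf5 (-2.19 ± 0.59) had 0 UMIs in both melanocyte-like high-mitochondrial sums, so that their fitted means depend on the fitting of a zero and are no measure of size. Neither was called in suprabasal IFE-like barcodes (adjusted p = 0.163 and 0.895, edgeR). Ppp1r14a was lower in basal IFE-like (-0.71), dividing-like (-0.80) and hair follicle-like barcodes (-0.83). The histone gene Hist1h2ae (-1.23 ± 0.25) had 0 and 1 UMIs in those sums, and its suprabasal difference was -0.01. The other 9 had a negative difference in each lineage, though not each was called in each. 1110012L19Rik and Flywch2 also had at most 1 UMI, and Serf1 and Gm10020 at most 2, in each melanocyte-like high-mitochondrial sum. The differences of 1110012L19Rik and Flywch2 there were -2.94 and -2.21 and were not called, and in suprabasal IFE-like barcodes they were -0.74 and -0.81. Tmsb4x, which binds actin monomers, was at 662 and 738 CPM against 1582 and 1478 (-1.02 ± 0.06, adjusted p = 2.23e-11). Cmc1 (-1.03 ± 0.11) and Immp1l (-1.02 ± 0.09) encode small mitochondrial proteins. Serf1, Flywch2, 1110012L19Rik, Gm10020, Gm2000 and Rps12-ps3 completed the 12, with means from -1.15 to -1.01. Rps12-ps3, and the ribosomal copies among the Gm genes, share sequence with the genes they resemble, so that reads may have been split among them.

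Transcript length went with the direction of the difference. The longest annotated transcript had a median of 4614 bases in the genes called higher and of 1912 in those called lower, beside 3340 in all genes tested. In the tenth of genes with the shortest transcripts, up to 1333 bases, 78 were higher and 571 lower, with a median log2 difference of -0.49. In the tenth with the longest, from 6771 bases, 838 were higher and 23 lower, with a median of 0.67. Genes are not independent replicates, and the lists above differ in length too, so that the part of length in them was not tested.

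Summed markers of other cell types were lower in high-mitochondrial barcodes for some lists and higher for others. Summed over the 18 melanocyte markers the level was 0.629 and 0.471 times that in low-mitochondrial barcodes (774 and 667 CPM against 1230 and 1418), with none of the 18 higher in both mice. For the 20 Langerhans cell markers it was 0.777 and 0.857 times, and for the 39 markers of dividing cells 0.657 and 0.586 times. Markers of endothelium (12.01 and 16.1 CPM over 10 genes), erythroid cells (15.6 and 18.2 over 11 genes, Bpgm the most abundant), skeletal muscle (7.90 and 7.54 over 13 genes) and mast cells (13.4 and 14.3 over 8 genes, nearly all Kit) stayed low in both classes. Of the erythroid markers 7 and 4 were at 0, and Hba-a1 had 4 and 2 UMIs. The 20 sebaceous markers were higher in sum in both mice, at 1060 and 908 CPM against 811 and 572 (1.31 and 1.59 times), with 6 of the 20 higher in both and 2 at 0 in each mouse. Their most abundant gene was Elovl4, a fatty acid elongase, at 368 and 360 against 118 and 71.0. The 17 dermal markers were higher in sum too, at 178 and 218 CPM against 145 and 146, with 7 and 5 markers at 0. Only 2 of the 17 were higher in both mice. The higher sum rests on Postn, which made up 162 and 185 CPM of it, against 108 and 111 in low-mitochondrial barcodes. All 32 markers of differentiated IFE were higher in both mice, at 57206 and 72015 CPM in sum against 8817 and 8019. Chrm3 had 2 and 3 UMIs in high-mitochondrial barcodes, at or under the 3 UMIs taken as the limit of detection, and 13 and 19 in low ones. That is 0.316 and 0.371 CPM against 0.145 and 0.135, on too few UMIs to compare the classes.

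The difference between classes was also compared between hair follicle-like and basal IFE-like barcodes. In edgeR 9 of 12782 genes (0.0704%) passed an adjusted p of 0.05, 8 of them (0.0626%) with a more positive difference in basal IFE-like barcodes and 1 (0.00782%) in hair follicle-like ones. Without the Malat1-led cluster 7 genes passed, and with lineages from clustering both classes together 2 did. The count was 87 with a block for the mouse, 127 with no filter on low counts and 98 in DESeq2. For the other genes a similar difference in both lineages is not shown, since the simulated recovery of changes of 2 on the log2 scale was 68.5% for this comparison.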

How the data were processed

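The authors deposited raw UMI counts per gene and barcode for each mouse, and the submitters' processing notes name Cell Ranger 3.0.2 and mm10. The members, gene lists and limits used here were chosen with earlier results of these data known. Seurat 5.3.0 (R 4.3.3) integrated the low-mitochondrial barcodes of both mice over 30 dimensions on 2000 variable nuclear genes, 505 listed genes left out, and clustered them at resolution 0.8. Clusters were named from listed markers among their 10 top genes by fold (10 CPM added), with at least 3 markers past a log2 enrichment of 0.75, or stayed unnamed. Transitional and differentiated markers were merged as suprabasal IFE. Label transfer gave the names to high-mitochondrial barcodes, of which 399 had a score under 0.5. Scrublet (scanpy 1.11.5) scored doublets, which were kept, with a limit of 0.2079 in both mice because the automatic one called 0 in KO mouse 1.

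Nuclear UMI counts were summed per mouse, lineage and class (20 sums of 122347 to 48679951 UMIs) and tested with edgeR 4.0.16 (filterByExpr, TMM on genes with at least 50 mean CPM, a choice made after false calls on simulated data, quasi-likelihood F-test, Benjamini-Hochberg adjustment, 10 residual degrees of freedom, biological coefficient of variation 0.0960). Each SE is the fold change divided by the square root of F. CPM are per 1000000 nuclear UMIs. Sums with the same number come from 1 animal, which pairs them: deviations from group means correlated between groups with r from 0.0153 to 0.426 (median 0.0773, 45 pairs). The main fit had no term for the mouse. Its p-values measure the spread between the 2 sums of a group, pooled over 10 groups cut from the same 2 animals. They do not measure how the difference between classes varies from animal to animal. In simulated data, 79.0% of 200 genes changed by 2 (log2) were recovered for the mean over lineages among 12251 genes, 89.5% among 12264 in suprabasal IFE-like and 37.0% among 12255 in melanocyte-like sums. These changes went up and down in equal number, other genes had no class difference, and sums were drawn without an effect of the animal. In the data 45.4% of genes were called, so the simulation cannot show which scaling is right.

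Named genes were, for the mean over lineages, the 12 largest differences each way among called genes with at least 20 CPM and the same direction in both mice, the 3 most abundant members of each list, and Chrm3. A gene that this rule names is not reported here. Others were named after their values were seen. Positions and transcript lengths are from GENCODE M21 (GRCm38), which held 27722 of 27998 identifiers. Alternatives were DESeq2 1.42.0, its size factors in edgeR, no filter, a block for the mouse, doublets removed, limits of 5% and 20%, resolution 1.2, a transfer score of at least 0.5, joint clustering, unseparated lineages and each mouse left out. TMM on all genes, removal of shared barcodes, of the Malat1-led cluster and of melanocyte-like sums, and the block with unseparated lineages were added after seeing the data. Plots used matplotlib 3.10.9 (Python 3.11.15).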

Additional observations from a re-analysis of the deposited data

Results flagged for a closer look

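A test of the difference itself, hair follicle-like minus basal IFE-like barcodes in the comparison of high- with low-mitochondrial barcodes, passed an adjusted p of 0.05 for 9 genes in edgeR. The genes follow from that threshold and were chosen after their values were seen. The largest difference was that of the transcription factor Sox13, at -4.29 ± 0.69 (log2 ± SE, adjusted p = 0.0186), with a class difference of -0.27 in hair follicle-like and 4.02 in basal IFE-like barcodes. Col14a1, a collagen, was at -2.90 ± 0.48 (-0.03 and 2.86) and the hair follicle transcription factor Lhx2 at -2.03 ± 0.33 (-0.33 and 1.70). The others with a negative difference were Fgfr1 (-2.33), Nfatc1 (-2.19), Fstl1 (-2.04), Cdc42ep3 (-2.01) and Sostdc1 (-1.83). The pseudogene Rpl23a-ps3, whose reads may belong to its parent gene, was at 1.27. Lhx2 and Nfatc1 are among the hair follicle markers and Cdc42ep3 and Col14a1 among the leading genes of hair follicle-like clusters, and 64.5% of basal IFE-like high-mitochondrial barcodes lay in the unnamed Malat1-led cluster. Without that cluster Col14a1 alone of the 9 passed (adjusted p = 0.0300, edgeR), though Sox13 was still at -4.21 and Lhx2 at -1.71. At or over 20% Sostdc1 alone of the 9 passed (adjusted p = 0.00484, edgeR), with Sox13 at -4.24 and Col14a1 at -1.80. Without doublets Fgfr1 (-2.19), Nfatc1 (-2.11), Cdc42ep3 (-1.93), Sostdc1 (-1.83) and Rpl23a-ps3 (1.23) did not pass. With lineages from joint clustering none of the 9 passed, where Sox13 was at -3.02, Lhx2 at -0.97 and Fstl1 at 0.61. All 9 kept their sign with either mouse left out, but the size of some differed between the mice. Lhx2 was at -1.06 without KO mouse 1 and -2.95 without KO mouse 2, and Sostdc1 at -2.19 and -1.03. For Sox13 the values were -4.41 and -3.81. The calls moved with the assignment of barcodes to lineages, the limit and the doublets, and the part of each was not tested further.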

How the results depend on the processing

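The suprabasal IFE-like share of high-mitochondrial barcodes, 44.7% as the mean of the mice, was 45.7% with lineages from joint clustering, 44.97% at resolution 1.2, 42.2% with transfer scores of at least 0.5, 44.3% without doublets, 18.3% and 52.2% with limits of 5% and 20%, and 60.3% without the Malat1-led cluster, and ranged from 44.5% to 44.8% with either mouse left out. The part of the lineage removed, 53.6%, was 87.2% and 45.6% with limits of 5% and 20%, and 52.5% to 54.7% with either mouse left out. Median nuclear UMIs, 2505.5, were 8759.5 and 2144.5 with those limits, 2410.8 without doublets and 2457 to 2554 with either mouse left out. Genes called in basal IFE-like barcodes (3127) fell to 87 with joint clustering and 274 without the Malat1-led cluster, and in dividing-like ones (3650) to 298 and 167. In melanocyte-like barcodes (298) the count was 787 in DESeq2, 704 with TMM on all genes, 575 with no filter, 503 with the replicate block by mouse and 567 with joint clustering. For the hair follicle against basal difference (9) it was 98 in DESeq2, 14 with its size factors, 17 with TMM on all genes, 127 with no filter, 87 with the replicate block by mouse, 5 without doublets, 1 at or over 20% and 2 with joint clustering. The mean over lineages (5803) was 5950 with the block, and 9485 with the block and lineages not separated. The block moved no other count of calls by over 1.5 times. Reversed genes were Jund (-0.23), Perp (-0.10) and Ssbp1 (-0.20) with TMM on all genes, Cebpb (-0.24) and Perp (-0.37) at or over 20%, Perp without melanocyte-like sums (-0.15), Cdkn1a without doublets (-0.0088), and Pdia3 with lineages not separated (0.0088, and 0.0065 with the block). The cause of these changes was not tested. Leaving out a mouse leaves no residual degrees of freedom, so gene results then have folds and no test. Melanocyte-like sums were too small for a fit at or over 20%. The melanocyte-like high-mitochondrial sums held 122347 and 142629 UMIs, which limits what that comparison can show.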

Other observations

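Of the 3507 barcodes outside the gene range, which no comparison used, 1162 of 1594 in KO mouse 1 and 1242 of 1913 in KO mouse 2 were also at or over 10% mitochondrial UMIs. All barcodes outside the range had a median of 655.5 and 658 genes, and a median mitochondrial share of 28.3% and 22.2%.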
